A study of Mus musculus with 16 samples.

Results

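The Erythroid cells of embryonic day (E) 9.5 chimeric mouse embryos were examined. A cell was included when the authors' mapping to a reference atlas had given it the label Erythroid, its library was an E9.5 library, it passed the authors' RNA filters and it was not called a doublet. WT-sorted cells in which a tdTomato transcript had been counted were left out, which removed 2 cells with this label. This gave 399 cells out of 21455 analysed at E9.5 and 37841 in the whole series. Of these, 380 were WT and 19 were *Stat3* null.

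The embryos were chimeras, made by injecting tdTomato-marked *Stat3* null embryonic stem cells of the CD1 background into WT CD1 blastocysts. *Stat3* null therefore means tdTomato-positive donor cells and WT means tdTomato-negative host cells of the same embryos, separated by flow cytometry before droplet single-cell RNA sequencing of 3′ ends. At E9.5 there were 4 WT libraries and 4 null libraries, each from 1 embryo by the labels. The study counted 2 E9.5 embryos, so the number of independent embryos behind n = 4 is not known and p-values measure the spread between libraries, which may be technical. At E8.5, the comparison stage, there were 2 libraries per genotype from pooled embryos, with 1048 WT and 725 null Erythroid cells. The letters A to D name the libraries of each group and do not pair libraries across groups.

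Primitive erythroid cells arise in the yolk sac from mesoderm, enter the circulation as nucleated cells when the heart starts to beat, and mature as a cohort. They make embryonic haemoglobin from the alpha-type zeta globin (*Hba-x*) and the beta-type globins epsilon y (*Hbb-y*) and beta h1 (*Hbb-bh1*), with *Hba-a1* and *Hba-a2* as the alpha globins that persist in the adult. Haem for these chains is made in mitochondria from a first step catalysed in red cells by *Alas2*, from iron taken up through the transferrin receptor. A later wave of erythro-myeloid progenitors (EMP) seeds definitive erythropoiesis.

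Cells were counted by unique molecular identifiers (UMIs). A member held between 10071 and 93718 UMIs (median 22533) and 2163 to 7121 genes (median 3589). Summed over members, the WT libraries A to D held 5019800, 1101052, 1309388 and 3723249 UMIs from 164, 43, 38 and 135 cells. The null libraries A to D held 178868, 80353, 39094 and 162540 UMIs from 9, 2, 2 and 6 cells, so that a single UMI weighs far more in the null values. No barcode occurred in more than 1 member, and 19 member barcodes also occurred in another E9.5 library. No WT library was a copy of another: their counts differed by more than counting noise (chi-square per degree of freedom 2.44 to 3.94), which does not show that they came from separate embryos.

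The label was checked against its markers. *Hbb-y* and *Hba-x* were counted in 100% of the 380 WT members, and *Alas2* in 100% as well. Summed over the WT members these genes stood at 154012 (*Hbb-y*), 103242 (*Hba-x*) and 603 (*Alas2*) counts per 1000000 UMIs (CPM). The 150 WT cells labelled EMP were different cells: haemoglobin genes took a median of 0.0761% of their UMIs against 31.8% in WT Erythroid cells, *Alas2* was counted in 6.0% of them, and the progenitor regulator *Myb* stood at 77.0 CPM against 1.17 CPM in Erythroid cells. In cells outside the blood labels the median haemoglobin percent of a library lay between 0.0242 and 0.0993 in E9.5 WT and between 0 and 0.00567 in E9.5 null libraries, which gives the level of haemoglobin RNA in cells that should not make it.

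The upstream 200 bases are shown for the label's markers *Hbb-y*, *Hba-x* and *Alas2*, and for the alpha globin copies *Hba-a1* and *Hba-a2*. They are RefSeq promoter sequences of build GRCm38.p6, read 5′ to 3′ on the gene's strand and ending just before a transcript start. Capitals mark 3 short motifs. The letters GATAA, or their reverse complement, are a core recognised by GATA1. The letters CACCC, or their reverse complement, are a core recognised by KLF1. The letters CCAAT, or their reverse complement, form the promoter box of that name. Matches of different motifs do not overlap in these windows.
*Hbb-y*, chr7:103853208-103853407, minus strand: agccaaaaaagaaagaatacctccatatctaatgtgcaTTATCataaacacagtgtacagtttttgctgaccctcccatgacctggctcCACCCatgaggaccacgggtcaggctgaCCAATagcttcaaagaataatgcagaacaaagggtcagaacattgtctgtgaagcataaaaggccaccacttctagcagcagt
*Hba-x*, chr11:32276400-32276599, plus strand: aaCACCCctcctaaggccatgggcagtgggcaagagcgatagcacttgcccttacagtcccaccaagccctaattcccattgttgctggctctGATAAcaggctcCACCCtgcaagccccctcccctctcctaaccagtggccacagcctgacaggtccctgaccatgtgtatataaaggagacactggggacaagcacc
*Hba-a1*, chr11:32283472-32283671, plus strand: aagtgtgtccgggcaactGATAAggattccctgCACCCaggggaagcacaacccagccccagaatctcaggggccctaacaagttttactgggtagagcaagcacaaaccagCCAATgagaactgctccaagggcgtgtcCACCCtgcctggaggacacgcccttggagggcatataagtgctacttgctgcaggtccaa
*Hba-a2*, chr11:32296292-32296491, plus strand: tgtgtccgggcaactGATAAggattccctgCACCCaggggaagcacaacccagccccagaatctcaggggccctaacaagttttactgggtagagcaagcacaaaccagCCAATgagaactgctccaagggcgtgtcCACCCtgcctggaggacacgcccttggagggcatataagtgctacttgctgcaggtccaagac
*Alas2*, chrX:150547217-150547416, plus strand: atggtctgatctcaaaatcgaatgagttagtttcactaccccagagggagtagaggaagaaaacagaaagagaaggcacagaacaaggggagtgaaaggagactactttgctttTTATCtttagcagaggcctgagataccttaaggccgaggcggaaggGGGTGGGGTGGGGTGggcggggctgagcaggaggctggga

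All 5 windows hold 1 GATAA match and between 1 and 3 CACCC matches. The windows of *Hbb-bs* and *Hbb-bt*, examined too but not shown, hold 0 GATAA matches, and 1 and 3 CACCC matches. Among 32851 promoters of the same length, 18.1% hold GATAA, 45.5% hold CACCC and 29.3% hold CCAAT. A match describes the letters only. The windows of *Hba-a1* and *Hba-a2* share 197 of their 200 bases in 1 unbroken run. They differ only in where they begin and end. How alike their counted transcripts are is given with their counts below.

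How many cells of each embryo were erythroid was compared between genotypes and stages. Erythroid cells made up 5.32, 1.63, 1.996 and 3.41% of cells in E9.5 WT libraries A to D (exact 95% binomial limits of single libraries between 1.18 and 6.18%), and 0.208, 0.083, 0.126 and 0.388% in null libraries A to D (limits between 0.0101 and 0.843%). The groups did not overlap. In the edgeR quasi-likelihood test over the numbers of cells of 71 cell types, Erythroid was the only type called, with a log2 fold change of -4.03 (SE 0.49). Such limits cover counting error only. Fewer cells of a type and cells lost to a filter cannot be told apart from these shares.

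Within the blood lineage the same difference was seen with other tissues out of the denominator. Blood lineage cells had the label Erythroid, Blood progenitors, Haematoendothelial progenitors, EMP, Megakaryocyte progenitors or Chorioallantoic-derived erythroid progenitors. The label MEP (megakaryocyte-erythroid progenitors), with 7 WT and 5 null cells at E9.5, was not in this denominator. It does count as a blood label where cells outside the blood labels are described. Erythroid cells were 57.8% ± 9.74 (SD, n = 4) of blood lineage cells in WT and 11.8% ± 4.06 (SD, n = 4) in null libraries (exact two-sided permutation test, p = 0.0286, the smallest that 4 against 4 allows). WT libraries ran from 46.7 to 69.8% and null libraries from 8.0 to 17.1%. EMP, the progenitors of the later wave, made up 1.28% ± 0.195 of all cells in WT and 1.04% ± 0.564 in null libraries (SD, n = 4 each, exact permutation p = 0.514). Megakaryocyte progenitors made up 0.587% ± 0.209 and 0.315% ± 0.119 (SD, n = 4 each, exact permutation p = 0.0857). In counts, the null cells comprised 113 EMP, 32 megakaryocyte progenitors and 19 Erythroid cells, and the WT cells 150, 71 and 380.

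In WT cells the share of erythroid cells was lower at E9.5 than at E8.5. The 2 E8.5 WT libraries held 16.7 and 16.3% Erythroid cells, above all 4 E9.5 WT libraries (exact permutation p = 0.0667, the smallest that 4 against 2 allows). Of blood lineage cells, 81.0 and 90.7% were Erythroid at E8.5, again above all 4 E9.5 WT values. At E8.5 the null libraries lay at 15.5 and 11.4% of cells.

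**Figure D1:**
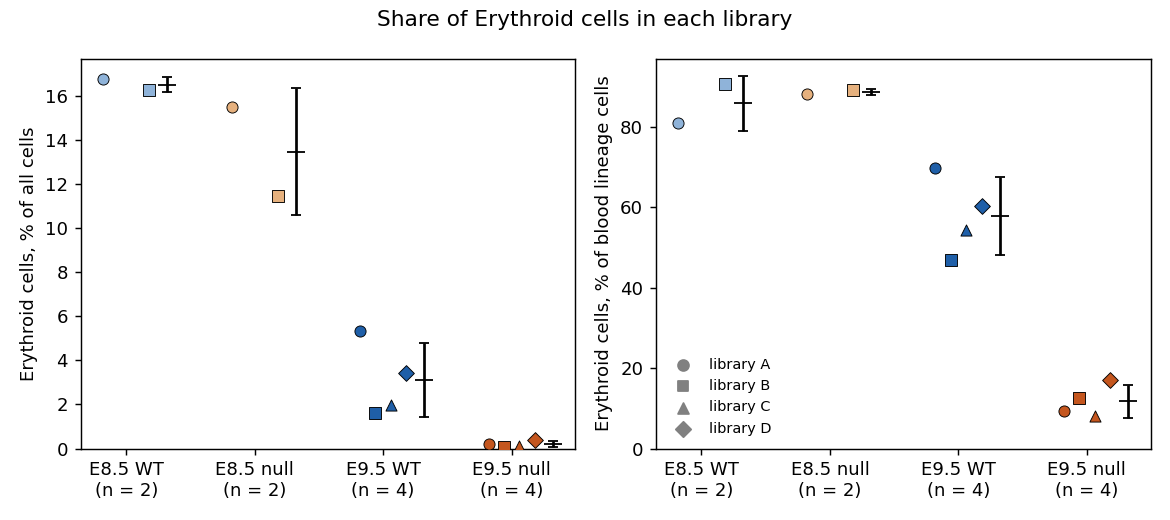
Erythroid cells as percent of all cells (left) and of blood lineage cells (right) in each library. Symbols are libraries A to D, the bar beside each group is the mean with its SD, and n is the number of libraries. At E9.5 the null libraries lie between 0.083 and 0.388% of cells, below every WT library on both axes.

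The filters on cells bear on these shares. Members with 10000 to 15000 UMIs, just above the floor, were 90 of 380 in E9.5 WT and 4 of 19 in E9.5 null, against 33 of 1048 in E8.5 WT. At E8.5 the ribosomal limit lay close to the cells: 724 of 1048 E8.5 WT members had 25 to 30% ribosomal protein UMIs, against 6 of 380 at E9.5. Cells beyond these limits were not analysed here, and their part in the shares was not tested.

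Members resembled late atlas cells. Of the 380 WT members 368 mapped to atlas stage E9.25, as did 13 of the 19 null members, whereas the 2 E8.5 WT libraries differed from each other: 270 of 426 cells of library A were mapped to E9.25 and 363 of 622 cells of library B to E8.5. The E8.5 reference group is thus itself spread in mapped stage, and both of its values are given for the genes described most fully.

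The haemoglobin content of WT members was compared between the stages, to describe how far this cohort had matured in a day. Haemoglobin genes took a median of 31.2, 35.1, 30.8 and 31.6% of the UMIs of a cell in WT libraries A to D at E9.5, against 22.4 and 13.4% at E8.5 (exact permutation p = 0.0667 for this and for the next 3 shares, none of which overlapped between stages). All 4 E9.5 libraries were higher. Among alpha-type globin UMIs, *Hba-x* took 83.2 and 88.7% at E8.5 and between 63.6 and 67.5% at E9.5, the rest being *Hba-a1* and *Hba-a2*. Among beta-type UMIs, *Hbb-y* took 75.8 and 53.4% at E8.5 and 84.7 to 87.8% at E9.5, mostly in place of *Hbb-bh1*. Alpha-type genes together took 57.0 and 67.1% of globin UMIs at E8.5 and 39.6 to 42.2% at E9.5.

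Single cells differed in the range of these shares. The *Hbb-y* share of a cell ran from 72.7 to 98.7% among the 380 WT members and from 0.38 to 91.3% among the 1048 E8.5 WT cells. The *Hba-x* share, in contrast, had the wider range among WT members, from 43.4 to 83.5%, against 68.3 to 97.1% among E8.5 WT cells. The adult beta globins *Hbb-bs* and *Hbb-bt* were minor, with a median of 0.339% of beta-type UMIs of a WT member and at most 6.63%.

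**Figure D2:**
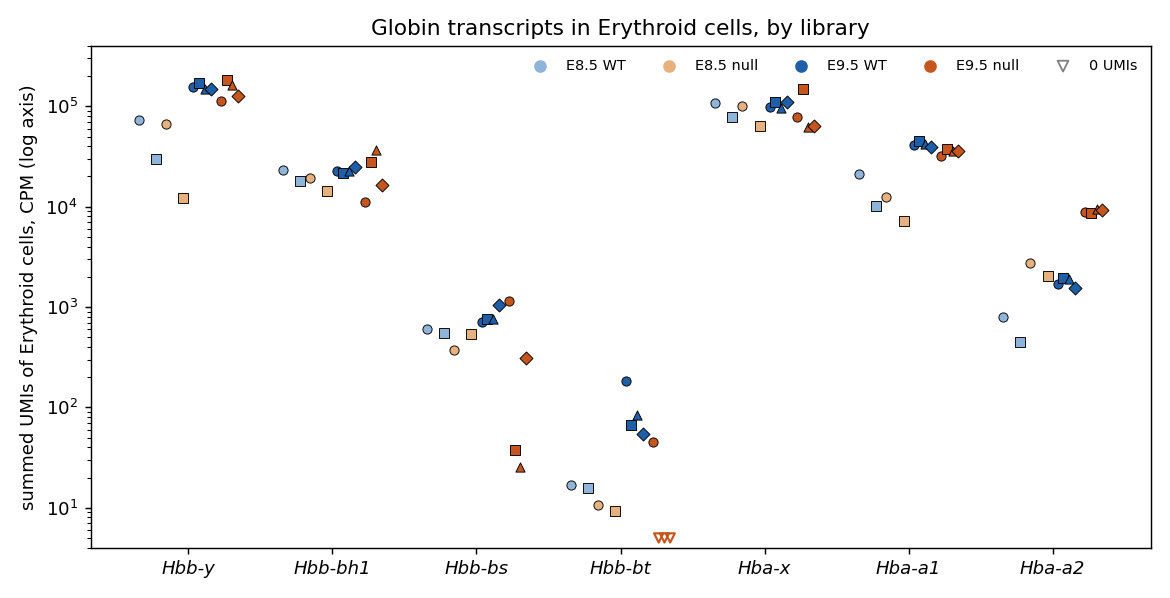
Globin transcripts in Erythroid cells as CPM of summed UMIs (log axis) in each library, by stage and genotype. Symbols stand for libraries A to D as in the plot of shares, and open triangles at the bottom mark libraries with 0 UMIs. *Hbb-y* lies between 148938 and 172338 CPM in E9.5 WT libraries against 29731 and 72701 CPM at E8.5, and *Hba-a2* separates null from WT at both stages.

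Summed per library, the globins were then tested across all genes. *Hbb-y* stood at 154783, 172338, 150076 and 148938 CPM in E9.5 WT libraries A to D and at 72701 and 29731 CPM at E8.5, a log2 fold change of 1.75 (SE 0.49) that did not pass (edgeR quasi-likelihood, adjusted p = 0.075 over 8992 genes). With DESeq2 on the same libraries it passed (1.74, adjusted p = 0.0021). The groups did not overlap, but the 2 E8.5 libraries lay far apart, and the fitted change was 2.71 without E8.5 WT A and 1.16 without B. A fit without either rests on 1 E8.5 library, which is assumed to vary like the E9.5 libraries, so its p does not hold the spread at E8.5. This applies to every stage result given without an E8.5 library. *Hba-a1* gave 1.57 (SE 0.40, edgeR adjusted p = 0.0531), and 2.34 and 1.04 without E8.5 WT A and B. It passed with DESeq2 (1.56, adjusted p = 0.0015). In edgeR it passed without TMM factors (1.43, adjusted p = 0.0485) and with all libraries of both genotypes in 1 fit (1.57, 0.0039).

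Among the 9 globin genes tested, 2 were called higher and none lower. A gene is called here at an adjusted p under 0.05 and an absolute log2 fold change over 1, which 5.46% of all genes met (4.35% higher, 1.11% lower). The called globins were *Hba-a2* (log2 1.67, SE 0.36) and *Hbb-bt* (2.82, SE 0.62), which stood at 54.3 to 184 CPM in E9.5 WT against 15.8 and 16.9 CPM. Both calls were lost when single libraries were left out, at adjusted p of up to 0.074 and 0.21. *Hbb-bs* passed at a smaller change (0.69, edgeR adjusted p = 0.0234), but not without E8.5 WT A or B or E9.5 WT B, at adjusted p of up to 0.24. *Hba-x* and *Hbb-bh1* each gave 0.33 and did not pass. *Hbb-bs* and *Hbb-bt* have 69 of the last 100 transcript bases in common, against 65 for *Hbb-y* and *Hbb-bh1* and 84 for *Hba-a1* and *Hba-a2*. Whether reads were split between them was not tested.

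Genes that supply haem and iron were examined next. Of 13 haem synthesis genes, 3 rose at any fold and none fell, against 9.61% of all genes higher and 10.1% lower by the same rule. The list's median log2 fold change was 0.38 against 0.04 over all genes. *Alas2* stood at 570, 599, 629 and 639 CPM in E9.5 WT libraries A to D and at 355 and 288 CPM at E8.5. That was a rise of 1.10 (SE 0.14, edgeR adjusted p = 0.000258) with no overlap. The mitochondrial transporter gene *Abcb10* rose by 0.85 and *Urod*, an enzyme of the middle of the pathway, by 0.57. *Fech*, which inserts the iron, gave 0.72 and did not pass in the main edgeR fit. It passed with DESeq2 (0.71, adjusted p = 0.0019). In edgeR it passed without TMM factors (0.57, adjusted p = 0.00082) and with no filter on low counts (0.60, 1.6e-05). It also passed there with thinned cells (0.72, 0.0083) and with all libraries in 1 fit (0.72, 0.038).

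Of 13 genes of iron handling, 7 rose and none fell (median 0.45), against 9.61% of all genes higher and 10.1% lower at any fold. They included *Tfrc*, the transferrin receptor (0.64), *Slc25a37*, the mitochondrial iron importer (0.66), *Steap3*, the endosomal ferrireductase (0.53), *Slc11a2*, which carries iron out of the endosome (0.52), and *Fth1*, a ferritin chain (0.45). The largest changes were those of scarce transcripts. *Slc40a1*, the iron exporter ferroportin, rose from 1.27 and 1.28 CPM to between 3.05 and 9.96 CPM (log2 2.68, SE 0.37). *Tfr2*, the second transferrin receptor, rose from 3.43 and 1.53 CPM to between 7.64 and 9.08 CPM (log2 1.88, SE 0.35). These 2 were the called genes of the list. Against E8.5 WT A alone *Fth1*, *Slc11a2*, *Steap3*, *Tfrc* and, of the haem genes, *Urod* did not pass, with log2 fold changes of 0.26, 0.38, 0.38, 0.49 and 0.34. *Fth1*, *Slc11a2* and *Steap3* did not pass without WT A of E9.5 either, at adjusted p of 0.089, 0.11 and 0.14.

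Of 25 genes of the red cell membrane and its skeleton 12 rose and none fell, with a median of 0.64. Over all genes 9.61% rose and 10.1% fell at any fold, and 4.35% were called higher. The blood group genes led: *Rhd* rose from 29.9 and 20.5 CPM to 124, 117, 109 and 78.7 CPM (log2 2.24, SE 0.28, edgeR adjusted p = 0.00284). *Kel* (1.35), *Ermap* (1.31) and *Slc4a1*, the band 3 anion exchanger (1.33), were also called, at adjusted p from 0.041 to 0.0489. Those 3 lost the call when any of several single libraries was left out, with *Slc4a1* at an adjusted p of up to 0.10. The spectrin gene *Sptb* (0.92), *Epb42* (0.91) and *Dmtn* (0.89) rose by less than 1. *Slc2a1*, a glucose transporter, stood at -0.56 and did not pass in the main edgeR fit. It passed as lower with DESeq2 (-0.57, adjusted p = 0.030). In edgeR it passed without TMM factors (-0.73, adjusted p = 0.0017) and with no filter on low counts (-0.68, 2.1e-07). It also passed there with thinned cells (-0.46, 0.047) and without E9.5 WT C (-0.72, 0.0081).

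**Figure D3:**
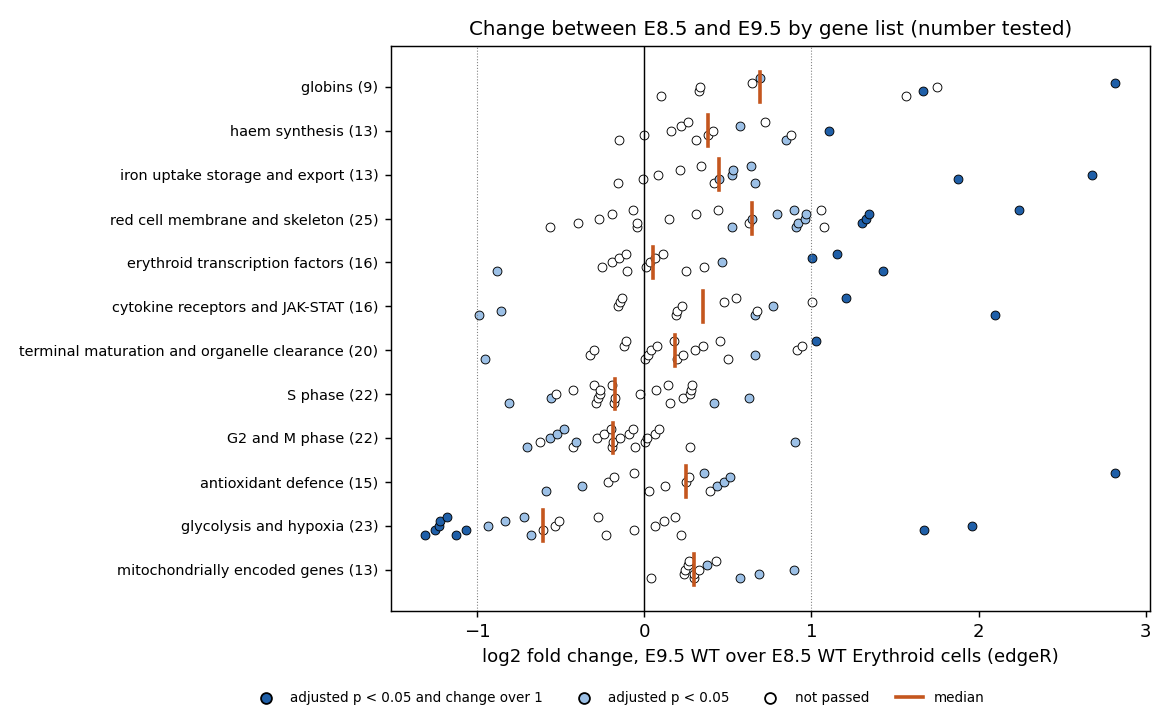
Log2 fold change of E9.5 WT over E8.5 WT Erythroid cells for the members of 12 gene lists, with the number tested in parentheses. Filled dark points were called, light points passed at a smaller change, open points did not pass, and the vertical bars are medians, which run from -0.61 for glycolysis and hypoxia to 0.69 for globins.

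Of 16 erythroid transcription factors tested, 4 rose, 3 of them called, 1 fell and 11 did not pass. The median was 0.05, close to that of all genes, over members that went both ways. Over all genes 9.61% rose and 10.1% fell at any fold, and 4.35% were called higher. The master regulators *Gata1* (-0.15) and *Klf1* (0.25) did not pass. *Hemgn*, a nuclear protein of erythroid precursors, stood at 303, 294, 287 and 312 CPM against 155 and 93.9 CPM (log2 1.43, SE 0.29). *E2f2* (1.16), a cell cycle factor of late erythroblasts, and *Zbtb7a* (1.01), a repressor of developmental globin genes, were called too. *Lmo2*, a partner of TAL1 and GATA1, fell by 0.88, from 78.0 and 122 CPM to between 40.5 and 61.8 CPM. *Hemgn* missed the threshold without WT A, B or D, at an adjusted p of at most 0.065 over all alternatives.

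Other regulators moved in both directions. *Meis1* rose (log2 1.65) and *Hhex* fell (-1.43), both called, among 7 early haematopoietic factors tested. Over all genes 4.35% were called higher and 1.11% lower. *Lin28b* and *Igf2bp1*, RNA-binding proteins of the fetal and embryonic programme, fell by 0.62 and 0.68, while *Hmga2*, of the same axis, rose by 1.06. The *Hhex* call was lost without 4 of the 6 libraries (adjusted p up to 0.12), the *Hmga2* call without WT C (0.053), and *Lin28b* did not pass without E8.5 WT B (0.096) or E9.5 WT A. *Myb*, *Bcl11a* and *Sox6* had too few counts to be tested.

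In cytokine signalling 4 of 16 genes rose and 2 fell (median 0.35), beside 9.61% of all genes higher and 10.1% lower. *Socs3* (log2 2.10), a feedback inhibitor induced by STAT3 and STAT5, and *Stat5a* (1.21) were called, at 2.42 to 6.11 CPM and 6.71 to 9.16 CPM in E9.5 WT. *Jak2* (0.66) and *Socs2* (0.77) rose by less than 1. *Epor*, the erythropoietin receptor, gave 0.19 and did not pass. *Csf2rb*, the common receptor chain of IL-3 and GM-CSF, fell by 0.86, from 76.5 and 76.6 CPM to between 24.5 and 52.7 CPM, and its near-identical neighbour *Csf2rb2* by 0.99. Reads of these 2 genes may be split between them. *Jak2*, *Socs2* and *Csf2rb2* did not pass without single libraries, at adjusted p of up to 0.24, 0.092 and 0.20. *Stat3* itself was at 13.7 to 24.5 CPM in E9.5 WT and did not pass (0.22).

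Of 23 genes of glycolysis and hypoxia, 11 fell and 2 rose at any fold, and 7 were called lower and 2 higher, with a median of -0.61. Over all genes 10.1% fell and 9.61% rose at any fold, and 1.11% were called lower and 4.35% higher. *Eno1* fell from 397 and 581 CPM to 172, 133, 196 and 174 CPM (log2 -1.31, SE 0.11, edgeR adjusted p = 3.61e-06). *Pgam1* (-1.26), *Hk2* (-1.23), *Pkm* (-1.22), *Pgk1* (-1.18), *Gapdh* (-1.13) and *Ldha* (-1.07) followed. The *Hk2* call was lost without WT A, at an adjusted p of 0.065. The 2 that rose were the red cell forms: *Pklr*, the red cell and liver pyruvate kinase, went from 23.4 and 10.4 CPM to 63.9, 64.5, 59.6 and 53.2 CPM (log2 1.96, SE 0.44), and *Bpgm*, which makes the 2,3-bisphosphoglycerate that lowers oxygen affinity, from 234 and 131 CPM to between 493 and 572 CPM (1.67, SE 0.34). Both missed the threshold without any 1 of the E9.5 WT libraries, *Pklr* at adjusted p of up to 0.09. In cells outside the blood labels of the same libraries, *Eno1* stood at 1130 and 1135 CPM at E8.5 and 738 to 896 CPM at E9.5, and *Pgk1* at 1121 and 1177 and 648 to 702 CPM, so lower values at E9.5 were not confined to Erythroid cells.

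Cell cycle lists were read against the 9.61% of all genes that rose and the 10.1% that fell. Of 22 G2 and M phase genes 5 fell and 1 rose (median -0.19), with *Cdk1* at -0.70 and the proliferation marker *Mki67* at 0.90. Of 22 S phase genes 2 fell and 2 rose (median -0.18), shares near those of all genes. *Ccnd1* was called (1.12) among 17 cell cycle regulators. Of 20 genes of terminal maturation and organelle clearance 2 rose and 1 fell. *Ube2l6* rose by 1.03, and the mitophagy receptor *Bnip3l* gave -0.11 and did not pass. Of 15 antioxidant genes 5 rose and 2 fell, with *Nqo1* at 2.82. In the BCL2 family *Bcl2l11*, which encodes BIM, rose by 1.08 and *Bid* fell by 1.71.

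Ribosomal protein genes and nuclear genes of respiration mostly did not pass. Of 91 ribosomal protein genes tested 12 fell and 1 rose, beside the 10.1% of all genes that fell (median -0.16), and of 89 nuclear genes of oxidative phosphorylation 24 fell and none rose (median -0.20). Of 13 mitochondrially encoded genes 4 rose and none fell (median 0.30), beside the 9.61% of all genes that rose. Ribosomal protein genes took a median of 19.2 to 20.5% of UMIs of a cell at E9.5 and 25.5 and 25.97% at E8.5, and cells held fewer genes when thinned to 10000 UMIs (2156 to 2278 against 2287 and 2539).

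Across all 8992 genes tested, 391 were called higher and 100 lower, and the 10 most changed in each direction with at least 20 CPM and no overlap were as follows. Higher were *Ckb*, *Mt1*, *Tinagl1*, *Atp2b4*, *Hbb-bt*, *AY036118*, *H2-D1*, *Tmem184a*, *Pdzk1ip1* and *Ccdc141*, with log2 fold changes from 3.81 down to 2.42. *Mt1*, a metallothionein that binds zinc and copper, rose from 326 and 178 CPM to 2183, 1529, 2320 and 1207 CPM (log2 2.99, SE 0.52). It stood at 25.3 to 61.6 CPM in other cells of the same libraries. *Atp2b4*, the calcium pump of the red cell membrane, rose from 5.28 and 2.51 CPM to between 19.3 and 30.7 CPM. *Ccdc141* rose from 7.65 and 6.73 CPM to between 21.8 and 40.6 CPM. *Ckb*, a creatine kinase, rose from 2.64 and 3.18 to between 16.9 and 82.6 CPM, and stood in the other cells at 44.9 and 31.2 CPM and between 187 and 468 CPM. The calls of *Ckb*, *Mt1*, *Tinagl1*, *AY036118* and *Tmem184a* were lost without at least 1 library, at adjusted p of up to 0.17, 0.085, 0.075, 0.059 and 0.19.

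Lower were *Ddah1*, *F10*, *Phlda1*, *Cpne7*, *Cited2*, *Hmga1*, *Fkbp11*, *Mif*, *Hist1h2ap* and *Bex4*, from -3.97 to -1.45. *Ddah1*, which degrades methylarginines, fell from 60.6 and 136 CPM to 5.18, 2.72, 3.05 and 7.25 CPM (SE 0.35). *Cited2*, a transcriptional co-regulator, fell from 916 and 1149 CPM to between 156 and 383 CPM, and *Mif*, a cytokine, from 1261 and 1958 CPM to between 423 and 537 CPM. *F10*, coagulation factor X, fell from 18.4 and 35.7 CPM to at most 5.58 CPM. The *Cited2* call was lost without E8.5 WT A or B or E9.5 WT A, at adjusted p of up to 0.13, and that of *Hist1h2ap* without E9.5 WT A, B or D (up to 0.068).

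Genes abundant in other tissues moved with the stage. Of the 391 genes called higher, 112 (28.6%) were over 10 times more abundant in cells outside the blood labels, against 5.36% of all genes tested, and 79 (20.2%) also more than doubled in those cells with no overlap between stages, against 1.95%. Yet 66.0% of the genes called higher were at all more abundant in those cells, against 86.0% of all genes. Of the 100 genes called lower, 15 were over 10 times more abundant there, and 12 were also more than 2 times lower there with no overlap. The 6 mesenchyme markers summed to 16.0 and 17.4 CPM at E8.5 and to between 15.4 and 61.9 CPM in E9.5 WT members (547 to 841 CPM in the other cells), with *Col1a1*, *Col1a2* and *Col3a1* called higher. The 5 neural markers summed to 8.02 and 20.2 CPM and to between 16.3 and 44.8 CPM (336 to 619 CPM in the other cells), with *Tubb3*, *Pax6* and *Hoxb9* called. Of these marker calls *Col1a1*, *Tubb3*, *Pax6* and *Hoxb9* were lost without at least 1 library, at adjusted p of up to 0.055, 0.051, 0.24 and 0.081. The platelet factor gene *Pf4* was called at 3.39 to 8.86 CPM, against 20208 CPM in WT megakaryocyte progenitors. Of 9 macrophage markers none had enough counts to be tested, and they summed to at most 2.29 CPM. Except for *Hk2*, the called globin, haem, blood group and glycolytic genes above stood at over 20 CPM in E9.5 WT, whereas *Slc40a1*, *Tfr2*, *Socs3*, *Stat5a* and *Nqo1* were at levels like those of the markers, and the part of such RNA in them was not tested.

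The 19 null members were then compared with the WT members of the same stage. The median haemoglobin percent of UMIs was 28.8, 40.8, 30.2 and 25.03% in null libraries A to D, on both sides of the WT values (exact permutation p = 0.743). The *Hbb-y* share of beta-type UMIs (81.8 to 94.9%) and the *Hba-x* share of alpha-type UMIs (57.0 to 76.6%) also overlapped with WT. *Hbb-y* stood at 113598, 181624, 165038 and 126350 CPM and *Alas2* at 581, 535, 946 and 455 CPM, and neither passed (log2 -0.20 and -0.17). Null B and null C are 2 cells each. The globin results turned on null B, which had the highest haemoglobin percent: without it *Hba-x* (-0.93), *Hba-a1* (-0.62), *Hbb-y* (-0.57) and *Hemgn* (-0.86) passed as lower in null members. With null libraries of at least 5 cells alone, A and D, *Hbb-bh1* (-1.07) and *Alas2* (-0.53) passed as lower too. Without null A, *Hbb-bs* passed as lower (-2.46).

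A tdTomato transcript was counted in 14 of the 19 null members and in 9623 of 9857 other null-sorted E9.5 cells. At E8.5 it was counted in 463 of 725 null Erythroid cells. *Stat3* was represented by 3 UMIs over all null members, 0.365 times the WT level with an exact 95% interval of 0.0746 to 1.08. This and the later intervals of such ratios are from UMIs summed over libraries, cover counting error only and leave out the spread between libraries. The counted 3′ end lies outside the deleted exons, so this does not check the genotype.

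The clearest difference between genotypes lay in the 2 adult-type alpha globin copies. *Hba-a2* took 2.58 to 9.44% of *Hba-a1* and *Hba-a2* UMIs in the 380 WT members (median 4.08%) and 10.9 to 32.4% in the 19 null members, so that no cell of one genotype entered the range of the other. By library the medians were 4.12% ± 0.223 in WT and 19.7% ± 0.961 in null (SD, n = 4 each, exact permutation p = 0.0286). The 5 null members without a tdTomato UMI lay at 12.5 to 22.5%, and the 2 WT-sorted cells that had been left out for a tdTomato UMI lay at 3.68 and 4.06%, within the WT range. At E8.5 the libraries were separated likewise, with medians of 3.63 and 4.04% in the WT libraries and 17.7 and 21.8% in the null libraries, although single cells overlapped there.

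**Figure D4:**
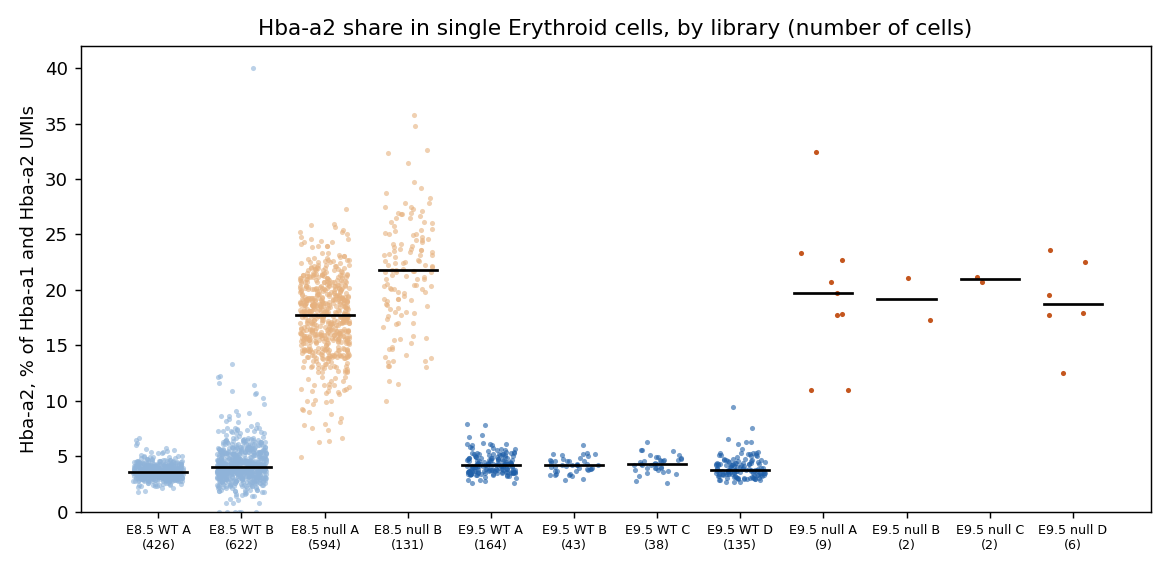
*Hba-a2* as percent of *Hba-a1* and *Hba-a2* UMIs in single Erythroid cells, by library (number of cells in parentheses). Each point is a cell and the bar is the library's median. At E9.5 the highest WT cell is at 9.44% and the lowest null cell at 10.9%.

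In CPM, *Hba-a2* stood at 1715, 1935, 1896 and 1532 in WT and at 8766, 8724, 9413 and 9308 in null libraries (log2 2.23, SE 0.18, edgeR adjusted p = 3.37e-09). *Hba-a1* stood at 41101, 45149, 42188 and 39416 in WT and at 32230, 37858, 35658 and 36059 CPM in null libraries, lower in each null library, though the change did not pass (log2 -0.36). The sum of the 2 genes did not separate the genotypes, at 43733 ± 2578 CPM in WT and 44504 ± 2428 CPM in null (SD, n = 4 each, exact permutation p = 0.657). Of the 554 bases of the *Hba-a2* transcript 537 match *Hba-a1*, and 84 of the last 100 bases do. How reads were divided between the copies was not tested, so the difference is given as one in the UMIs assigned to each gene. Null cells all came from the donor line and WT cells from the host, so line and *Stat3* genotype cannot be told apart in it.

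Over all 4525 genes tested between the genotypes, 53 were called (1.17%), 34 higher (0.751%) and 19 lower (0.42%) in null members. The split depended on the setting: it was 12 higher and 20 lower without null A, and 39 and 5 without TMM scaling factors, which moved the median log2 fold change of all genes from 0.00 to 0.17. After *Hba-a2*, the calls with the smallest p were *Grb10* and *H19*, both imprinted genes. *Grb10* stood at 145, 141, 150 and 139 CPM in WT libraries and was represented by 2 UMIs over all null members, 0.0303 times the WT level (exact 95% interval 0.00366 to 0.109). *H19* stood at 963, 767, 1036 and 898 CPM in WT and at 16.8, 0, 153 and 98.4 CPM in null libraries, 0.0583 times the WT level when summed (0.0377 to 0.0861, counting error only), with the null libraries spread more widely than that.

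These differences were not particular to Erythroid cells. In cells outside the blood labels *Grb10* stood at 367 to 384 CPM in WT and at 9.98 to 22.5 CPM in null libraries at E9.5, and *H19* at 482 to 743 and 14.7 to 114 CPM. *Cwc22*, a splicing factor, was higher in null members (49.8 to 128 against 13.6 to 24.4 CPM, log2 2.01) and likewise in the other cells (154 to 175 against 37.1 to 39.1 CPM). At E8.5 the null libraries differed from each other: *Grb10* was at 1.63 CPM in null A and 113 CPM in null B, and *H19* at 169 and 0.795 CPM.

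Among erythroid genes, *Pklr* was lower in null members. It stood at 63.9, 64.5, 59.6 and 53.2 CPM in WT and at 0, 12.4, 0 and 12.3 CPM in null libraries, that is 3 UMIs in all (log2 -3.33, SE 0.57, edgeR adjusted p = 0.00256, ratio 0.109 with an exact 95% counting interval of 0.0224 to 0.319). At E8.5 the null libraries had stood at 6.47 and 3.58 CPM and WT at 23.4 and 10.4 CPM. Cells outside the blood labels were separated the same way at E9.5, at levels of 0.105 to 0.417 CPM in WT and 0.0297 to 0.104 CPM in null libraries. The median haemoglobin percent of those cells was separated likewise, at 0.0242 to 0.0993 in WT and 0 to 0.00567 in null libraries. The part of stray erythroid RNA in these *Pklr* levels was not tested. *Bpgm*, which had risen with it in WT cells, was at 391, 324, 281 and 178 CPM against 493 to 572 CPM in WT and fell by 0.94. The remaining glycolytic genes did not pass, with *Eno1* at 0.07, *Gapdh* at -0.01 and *Ldha* at -0.20. *Pklr* kept its call without each single library, whereas *Bpgm* lost its pass without any WT library, at adjusted p of up to 0.22.

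Both annotated *Pklr* starts are shown, as the counted 3′ ends do not tell which was used. In capitals, the first window holds a match of the GATA1 core and one of the KLF1 core on the other strand, and the second a CCAAT match on the other strand.
*Pklr* start 1, chr3:89135942-89136141, plus strand: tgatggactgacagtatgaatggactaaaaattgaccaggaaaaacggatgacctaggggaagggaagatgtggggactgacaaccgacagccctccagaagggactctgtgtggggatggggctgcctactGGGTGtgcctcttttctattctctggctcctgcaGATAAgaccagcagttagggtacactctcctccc
*Pklr* start 2, chr3:89136423-89136622, plus strand: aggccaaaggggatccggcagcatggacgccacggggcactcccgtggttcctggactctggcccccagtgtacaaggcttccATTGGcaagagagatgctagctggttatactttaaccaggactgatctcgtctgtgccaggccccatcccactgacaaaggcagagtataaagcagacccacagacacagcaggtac

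Erythroid transcription factors held 2 genes called higher among 15 tested, against 0.751% of all genes. *Nfe2*, which drives globin and platelet genes, stood at 179, 99.6, 102 and 148 CPM in null libraries against 55.0, 62.7, 32.8 and 60.4 CPM in WT (log2 1.30, SE 0.27, edgeR adjusted p = 0.0173). *Lyl1*, a relative of TAL1, stood at 117, 62.2, 230 and 142 CPM against 48.9 to 58.6 CPM (1.11, SE 0.25). No null library overlapped with WT for either gene. *Gata1* gave 0.73 and *Klf1* -0.18, and neither passed in the main fit. Over the edgeR, DESeq2 and limma settings the adjusted p of *Gata1* ran from 0.022 to 0.76. The *Nfe2* call was lost without WT A (adjusted p 0.065) or null A (0.12), and that of *Lyl1* without any single library other than null B (up to 0.11).

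Of 12 mitochondrially encoded genes tested, 5 fell at any fold and none rose, against 0.53% of all genes lower and 0.773% higher by the same rule, and the list's median was -0.94 against 0.00 over all genes. The 4 called were *mt-Atp8* (-2.29), *mt-Nd5* (-1.21), *mt-Nd3* (-1.08) and *mt-Nd2* (-1.05), each below WT in every null library. *mt-Nd2* stood at 358, 248.9, 563 and 652 CPM against 723 to 1021 CPM, while in other cells it was at 649 to 785 CPM in null and 725 to 931 CPM in WT libraries. By cell, mitochondrial UMIs took a median of 0.482, 0.467, 0.917 and 1.40% in null A to D and 1.34 to 1.74% in WT, with null D inside the WT range (exact permutation p = 0.0571). The calls of *mt-Nd2*, *mt-Nd3* and *mt-Nd5* were lost without any single WT library, at adjusted p of up to 0.22. When cells with a label score under 0.5 were left out, *mt-Atp8* (adjusted p 0.058), *mt-Nd3* (0.16) and *mt-Nd5* (0.13) lost theirs. These cells were 3 members of null A, described below, and 1 WT member.

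The other lists held few calls. None of 12 haem synthesis genes, 9 iron genes or 15 maturation genes was called by edgeR. Nor was any of 22 S phase genes, 22 G2 and M phase genes or 83 ribosomal protein genes. Over all genes 1.17% were called, 0.751% higher and 0.42% lower. At that share lists of this size would hold few calls or none. In this comparison 657 of 4525 genes reached an unadjusted p under 0.05, and DESeq2 called 78 genes. Null B and C, of 2 cells each, bore on the haem and iron genes. *Slc25a37* gave -0.39 and did not pass, but was called lower without null C (-1.01, adjusted p 0.0064) and with null A and D alone (-1.16). *Fech* (-0.61) did not pass, but did without null B (-0.77) or null C (-0.72), and *Abcb10* (-0.38) did without null C (-0.78). Of 22 membrane genes *Add2*, an adducin, was lower (-1.40), and of 12 cell cycle regulators *Cdkn2d*, an inhibitor of CDK4 and CDK6, was higher (2.08), with 28 UMIs of which none were in null C. The call of *Add2* was lost without any library other than null B or C, at adjusted p of up to 0.23, and that of *Cdkn2d* without null D (0.17). The rule for named genes also gave *S100a13*, *Lmx1a*, *Pmm1*, *Atf7ip*, *Derl1*, *Ralgps2* and *Fam195b* as higher (log2 1.30 to 1.95), and *Acss1*, *Cd3eap*, *St3gal6*, *Fam96a* and *Psmg4* as lower (-3.66 to -1.60). Each rested on 1 to 46 null UMIs, and each lost the call in at least 1 setting that left out a library or changed the tool, normalization or cells. Markers of other cells were spread more widely in null than in WT libraries. Megakaryocyte markers summed to between 12.4 and 296 CPM, against 29.8 to 44.5 CPM in WT. Neural markers summed to between 0 and 263 CPM, against 16.3 to 44.8 CPM in WT. Mesenchyme markers summed to 24.9 to 92.3 against 15.4 to 61.9 CPM, and cardiomyocyte markers to 0 to 51.2 against 2.72 to 11.3 CPM. The part of such RNA in the null differences, here and in the interaction below, was not tested.

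Genes that had been lower in null Erythroid cells at E8.5 were followed to E9.5. The list was drawn from these samples at E8.5, so it is no independent evidence of a direction. In the edgeR fit at E8.5 5 of its 14 genes were called lower and 9 did not pass, with log2 fold changes of -1.36 and below. Of its 14 genes 8 could be tested at E9.5, with a median of -0.87, and *Acss1*, an acetyl-CoA synthetase, was the 1 called, at 1 UMI over all null members against 21.5 to 31.7 CPM in WT. That call was lost without null A or null D, at adjusted p of 0.14 and 0.13. *Krt15*, a keratin, was at 465, 373, 208 and 217 CPM in WT and had 0 UMIs in all 19 null members (upper exact 95% limit of the ratio 0.0233), as it had 0.407 and 0 CPM in the 2 E8.5 null libraries. The edgeR adjusted p for *Krt15* was 0.126, and DESeq2 gave 6.3e-09.

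For 3 genes of that list the result turned on null A. *Csf2rb* was at 3.54 and 1.19 CPM in the E8.5 null libraries. At E9.5 it was at 78.3 CPM in null A, from 14 UMIs in 2 cells, and had 0 UMIs in null B, C and D, against 24.5 to 52.7 CPM in WT. Over all libraries it did not pass (adjusted p = 0.86), and without null A it did (adjusted p = 0.0076). *Pim1*, a kinase induced by STAT signalling, was at 291, 99.6, 153 and 185 CPM against 237 to 299 CPM in WT, and *Plin2*, a lipid droplet protein, at 587, 49.8, 102 and 105 CPM against 171 to 275 CPM. Without null A they gave log2 fold changes of -1.02 (adjusted p = 0.022) and -1.55 (0.00057).

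**Figure D5:**
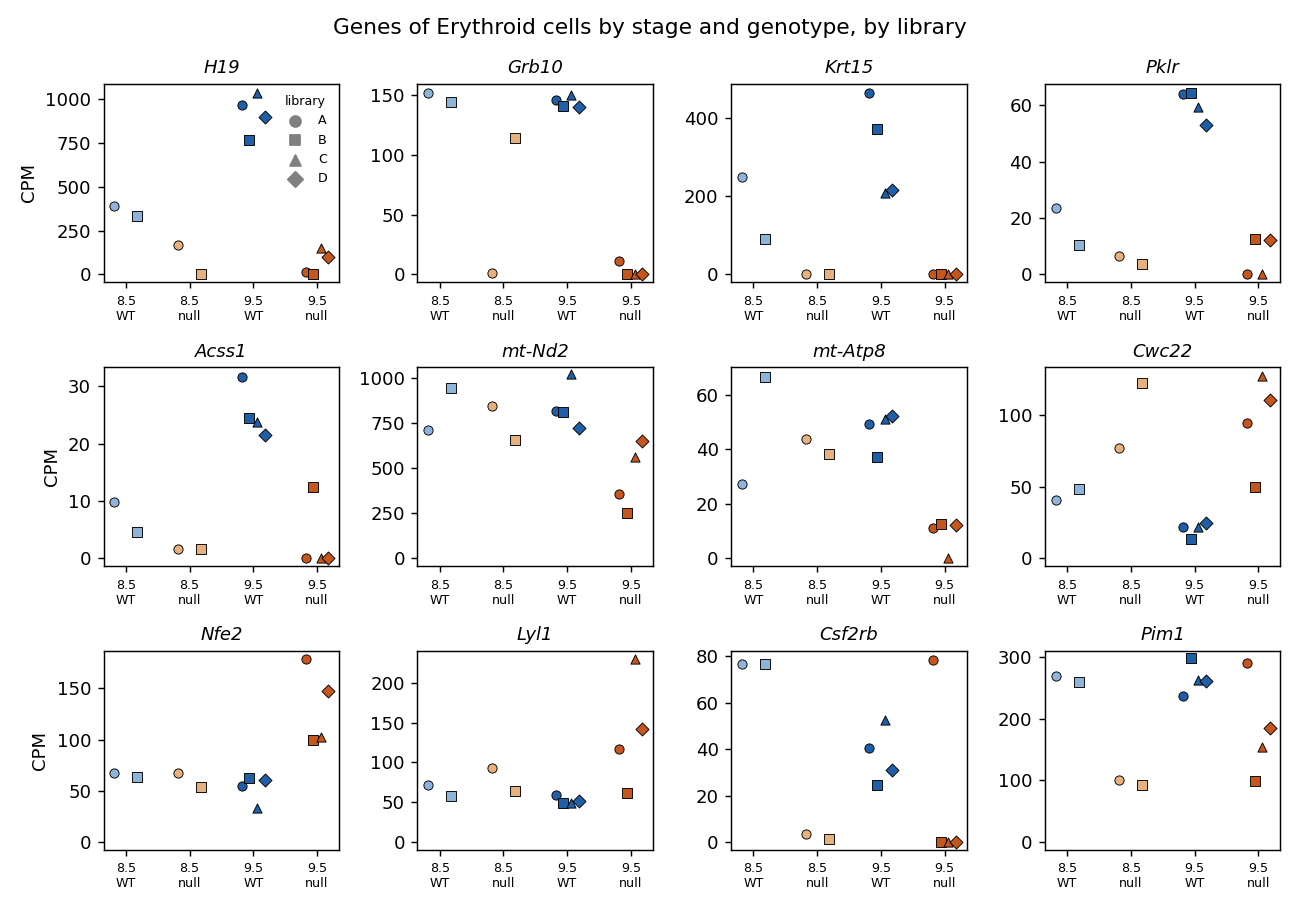
CPM of 12 genes in Erythroid cells by stage and genotype (linear axes). Each point is a library, with symbols for libraries A to D. *Krt15* had 0 UMIs in all 4 E9.5 null libraries, *Grb10* and *H19* lie below WT in all 4, *Nfe2* and *Lyl1* above, and for *Csf2rb* and *Pim1* null A lies apart from null B, C and D.

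The members of null A were unlike the rest. Of its 9 cells, 5 were the only null members with UMIs of *Plek*, a protein of platelets and leukocytes (1 to 22 per cell, 48 in all). In 4 of the 5 the myeloid factor *Spi1* was counted as well, as it was in 1 cell of null D. Over all 19 null members 8 of 9 macrophage and myeloid markers and 5 of 9 megakaryocyte markers had 0 UMIs, *Pf4* among the latter genes not counted. The megakaryocyte markers that were counted still summed to between 12.4 and 296 CPM in null libraries, against 29.8 to 44.5 CPM in WT. Among the 380 WT members 12 had a *Plek* UMI and 7 a *Spi1* UMI. All 5 cells took 10.97 to 32.4% of their alpha globin copies from *Hba-a2* and carried tdTomato UMIs. Haemoglobin took 8.60 to 34.3% of their UMIs, and 3 of them were the only null members with a label score (the share of nearest atlas cells with the label) under 0.5. In null D, 1 cell of 58594 UMIs held 17 UMIs of *Gata2* and 14 of *Runx1*, factors of blood progenitors. With cells scoring under 0.5 left out, an alternative added after seeing the data, 19 genes were called in place of 53, and 18 of them were among the 53.

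Whether the difference between null and WT itself changed from E8.5 to E9.5 was tested as an interaction. Of 8847 genes 6 were called (0.0678%), while 1176 reached an unadjusted p under 0.05. *Cd59a*, which protects cells from complement, had been at 13.7 and 7.16 CPM in E8.5 null against 154 and 122 CPM in WT libraries, and at E9.5 was at 95.04, 24.9, 51.2 and 92.3 CPM against 85.9 to 112 CPM. Its call was lost without any of 6 E9.5 libraries, all but WT B and null B, at adjusted p of up to 0.31 without null A. *Wrn*, a helicase gene, had 0 UMIs in null members against 15.4 to 20.6 CPM in WT, and 20.4 and 18.3 CPM in E8.5 null libraries. *Ube2h*, a ubiquitin-conjugating enzyme of late erythroid cells, was higher in null A and D (168 and 123 CPM) than in null B and C (37.3 and 25.6 CPM), with WT at 22.8 to 37.2 CPM. Its call was lost without any of 5 libraries, at adjusted p of up to 0.28 without null A. *Fam96a*, *Cdh2* and *Klc3* were the others. No gene was called by edgeR without WT A, WT D or null A, where 771, 723 and 875 genes had an unadjusted p under 0.05.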

How the data were processed

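Single-cell RNA of 16 libraries of sorted chimera cells was measured with 10x 3′ v3 chemistry. The authors mapped reads to mm10 with Cell Ranger and deposited raw UMI counts per gene and cell, a whole-number matrix with no normalization, with their table of cells: barcodes with 10000 to 100000 UMIs, 2000 to 10000 genes, under 5% mitochondrial and under 30% ribosomal UMIs, a doublet call, and a cell type from the 25 nearest atlas cells. Haemoglobin genes had no part in that mapping. The label score, a fraction, was used as deposited by the authors. Library names in that table match no sample title, so each library took its group from the table's own stage and sort columns, and the number of libraries per group equals that of samples.

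Counts were summed per library over Erythroid cells and tested with edgeR 4.0.16 (quasi-likelihood, filterByExpr, TMM, Benjamini-Hochberg over all genes tested). Of 29453 genes, 21407 were kept: tdTomato, *Xist*, *Tsix*, Y-linked and predicted genes were dropped, following the published gene filter. Haemoglobin, imprinted, mitochondrial and ribosomal protein genes, which that filter also drops, were kept. The stage fit used WT libraries with over 15 Erythroid cells. The null fit had no such minimum, as no null library reached it. Log2 fold changes are E9.5 over E8.5 or null over WT. Exact permutation tests were two-sided. CPM is per 1000000 summed UMIs, and as only 3′ ends are counted it was not scaled by length. Alternatives used DESeq2 1.42.0 and limma 3.58.1. The scripts were tested on simulated data. Cells of one library are not replicates. Members and gene lists were chosen with earlier results of these data known, and the list of genes lower in E8.5 null cells came from them. Named genes were list members that were called, ended their list or defined its role, and the 10 largest called changes per direction with a mean of at least 20 CPM in the higher group and no overlap between libraries. Some genes that met this rule are not reported here. Files hold 0 columns of other samples.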

Additional observations from a re-analysis of the deposited data

Results flagged for a closer look

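Of 124 sets of 4 libraries examined with Dixon's test at its 95% critical value, 4 held a library apart from the other 3, where chance alone gives about 1 in 20. The median share of *Hbb-bs* and *Hbb-bt* among beta-type UMIs was 0.345% in null A, against 0.0097 to 0.05% in null B, C and D. *Hbb-bs* stood at 1038 CPM in WT D, *Pgam1* at 126 CPM in WT C and *Plek* at 12.7 CPM in WT B.

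The test of the difference between stages singled out 6 genes, with changes of the null effect of 2.84 for *Cd59a*, 2.06 for *Ube2h*, 6.27 for *Klc3*, -10.80 for *Wrn*, -2.14 for *Fam96a* and 3.76 for *Cdh2* (log2, edgeR). The fitted values of *Wrn* and *Klc3* rest on libraries with 0 UMIs and are no bounds.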

How the results depend on the processing

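No paired analysis was possible because cells are named by libraries that no sample title names, so none could be tied to a replicate number or embryo pool. Among 117 settings of 11 counts and values, 87 kept their call or stayed within 1.5 times, and none reversed. Part of this was fixed in advance. Exact permutation tests between stages cannot go below p = 0.0667, so those results could not change call, and counts of genes cannot reverse. A like count may also hold other genes. The 437 stage calls from thinned cells shared 243 with the 491, and the 77 null calls without null D shared 29 with the 53. Among 3022 settings of single genes 2651 kept their side of the threshold, 291 lost it, 80 gained it and none reversed. In the stage comparison 491 genes became 1769 with no threshold on the fold change, and 270 to 522 when a library was left out, 270 of them without WT A, the E9.5 library with the highest number of UMIs. Without TMM factors the split moved from 391 higher and 100 lower to 267 and 183, and the median log2 fold change of all genes from 0.04 to -0.14. In the null comparison 53 became 13 with limma-voom quality weights, 295 with no filter on low counts (13738 genes tested), 192 with at least 5 cells per library and 19 with label scores of at least 0.5 (16 higher, 3 lower), and 11 to 129 without single libraries (11 without WT A, 14 without WT B, C or D, 32 without null A, 129 without null B). The filter let 1832 to 6179 genes through in those fits. The interaction's 6 calls became 49 with DESeq2, 123 with no filter, and 0 to 85 without single libraries. The difference in Erythroid share was -2.89 percentage points, and -3.38 to -2.14 without single libraries. Without a null library, -2.95 to -2.85, the exact permutation test of 3 against 4 gave p = 0.0571. For the calls lost, the cause was not tested beyond the number of genes and samples. Null values rest on 39094 to 178868 UMIs per library, which limits what they show of scarce genes.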
